A study of Mus musculus with 2 samples.

Results

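Somatostatin (Sst) interneurons were examined in single nuclei of the hippocampus of 8-month-old 5XFAD mice with and without the gene Mr1. A nucleus was counted as an Sst interneuron when it had at least 4 unique molecular identifiers (UMIs, single captured RNA molecules) of Gad1 and Gad2 together and at least 5 of Sst, fewer of Pvalb than of Sst, and not both Rarb and Rgs9 at 2 or more. The last condition was meant to remove medium spiny neurons of the striatum, and it kept out 6 nuclei of the 5XFAD library and 0 of the other. Those 6 had medians of 14281.5 UMIs in all, 10.5 of Sst and 27 over Lhx6, Sox6, Satb1, Nxph1 and Grin3a. Whether they were medium spiny neurons, Sst interneurons or doublets was not tested. The rule found 60 nuclei among 15408 of the 5XFAD library and 106 among 22263 of the library labelled MR1 knockout. Together these were 166 of 37671 nuclei that passed limits of 500 genes and 5% mitochondrial UMIs, out of 51450 deposited barcodes. The nuclei were thus selected on their UMIs of Sst, Gad1, Gad2, Pvalb, Rarb and Rgs9, so the levels of those genes are given only as a description.

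Sst interneurons are inhibitory neurons that arise in the medial ganglionic eminence (MGE) of the embryo under the transcription factors Lhx6, Sox6 and Satb1. In the hippocampus they include the oriens-lacunosum moleculare cells of CA1 and the cells of the dentate hilus that innervate the perforant path zone. They contact the distal dendrites of principal cells and so gate the input from the entorhinal cortex. Many release the peptides somatostatin and neuropeptide Y beside GABA, and they have long been studied in Alzheimer's disease because somatostatin is lowered in patients' brains and regulates neprilysin, an enzyme that degrades amyloid-beta.

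Both groups carried 5XFAD, transgenes with familial Alzheimer's disease mutations, human APP among them, under the neuronal Thy1 promoter, and no mice without them were analysed here. The second group was also labelled as lacking MR1, an antigen-presenting protein that shows microbial riboflavin metabolites to MAIT cells, a kind of innate-like T cell. Each group was 1 library that pooled nuclei of 1 male and 1 female, so the 2 libraries allow no test between the genotypes, and genotype, capture and individual mice cannot be told apart. Within a library the nuclei of each mouse were told apart by Xist and Y-linked RNA. In the 5XFAD library 22 Sst nuclei came from the female, 25 from the male and 13 could be given to neither. The library labelled MR1 knockout had 58, 26 and 22.

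The Sst nuclei carried 581224 UMIs in the 5XFAD library, from 2941 to 33875 per nucleus with a median of 8855. In the library labelled MR1 knockout they carried 774172 UMIs, from 2549 to 21767 with a median of 6531. Their median mitochondrial shares were 1.61% and 1.07%. Scrublet, a doublet caller, marked 6 and 17 of them, and 10 and 14 held both Xist and Y-linked RNA; doublets were kept and left out in alternatives. The libraries shared 182 barcodes, of which 1 belonged to an Sst nucleus in each. The targeted gene Mr1 lies on chromosome 1 from 155127277 to 155146814 (mm10, as all positions here). The Sst nuclei had 0 UMIs of it under the 5XFAD label and 1 under the MR1 knockout label, so at this depth it could not check the labels.

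The nuclei carried interneuron markers that the rule had not used. Nxph1, a secreted neurexin ligand of these cells (chromosome 6, 8948431 to 9249032), was detected in 93.3% of the 5XFAD Sst nuclei and in 94.3% of the others. The same gene was detected in 9.74% and 8.03% of excitatory neurons, which were called from Slc17a7 and had similar depth (median UMIs 9307 and 6732.5). Grin3a, an NMDA receptor subunit, was detected in 80.0% and 83.0% of the Sst nuclei against 29.8% and 29.4% of excitatory neurons. Nxph1 does not mark MGE origin by itself, since 95% and 97.2% of Lamp5 nuclei and 60.5% and 60.6% of Adarb2 nuclei had it, and Grin3a was in 47.1% and 43.9% of Adarb2 nuclei. Sox6 was found in 55.0% and 68.9% of the Sst nuclei, against 4.97% and 5.49% of excitatory neurons, 10% and 2.78% of Lamp5 nuclei and 13.4% and 9.50% of Adarb2 nuclei. Lhx6, a low transcript, was found in 25% and 20.8%, against 0.596% and 0.563% of excitatory neurons and 5.81% and 4.98% of Adarb2 nuclei. Of the Sst nuclei, 4 and 1 had fewer than 2 UMIs over these MGE markers with Satb1, so the label is in doubt for them. Nxph1 or Grin3a alone can reach 2 UMIs, so the count does not establish an MGE origin for the rest.

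Free RNA was present in both captures and touches every share of nuclei with a UMI. Sst itself had a UMI in 52.5% and 49.4% of excitatory neurons, at 73.9 and 94.3 CPM, against 1323 and 2696 CPM in the Sst nuclei. CPM here are the UMIs of a gene summed over a class of nuclei and scaled to a class total of 1000000. The 5 oligodendrocyte markers together stood at 299 CPM in 5XFAD Sst nuclei and at 168 CPM in the others, beside 280 and 249 CPM in excitatory neurons. The 7 medium spiny neuron markers stood at 957 and 690 CPM (749 and 516 in excitatory neurons). The 6 microglial markers, all detected, stood at 244 and 233 CPM. Endothelial markers had 1 and 2 UMIs. The part of these levels in the differences between the libraries was not tested.

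Sst interneurons made up 0.389% of the kept 5XFAD nuclei (exact binomial 95% interval 0.297 to 0.501) and 0.476% of those labelled MR1 knockout (0.390 to 0.576). All intervals given here cover counting error only and not the variation between mice. The intervals overlapped, and the ratio of the shares was 1.22, or 0.942 among nuclei under 1% mitochondrial UMIs. Among the nuclei with at least 4 UMIs of Gad1 and Gad2 the shares were 7.27% of 825 and 18.3% of 579, a ratio of 2.52, over a denominator that was larger in the 5XFAD library. In the females these shares were 12.4% (7.96 to 18.2) and 17.2% (13.3 to 21.6), with overlapping intervals. In the males they were 6.78% (4.43 to 9.84) of 369 and 22.6% (15.3 to 31.3) of 115. Just inside the Sst threshold, at 5 UMIs, lay 10 and 12 nuclei, and just outside, at 4, lay 9 and 10. The Gad threshold left out more: 21 and 40 nuclei were at 4 UMIs and 31 and 63 at 3. In all, 148 and 333 further nuclei had at least 5 Sst UMIs and at least 2 over Lhx6, Sox6, Satb1, Nxph1 and Grin3a but fewer than 4 Gad UMIs, 0.961% (0.813 to 1.13) and 1.496% (1.34 to 1.66) of the kept nuclei. Those intervals did not overlap. These Sst-positive nuclei outside the rule met its conditions on Sst, Pvalb, Rarb and Rgs9 and failed only that on Gad1 and Gad2. They hold 877744 and 1491975 UMIs, with medians of 4973 and 3922 per nucleus, and are shallower than the Sst nuclei. They serve below as a second set of nuclei from the same mice and captures, selected on Sst too.

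Between the libraries, several genes that vary among Sst nuclei differed. Htr2c, Tshz2, Calb1, Moxd1, Cntnap5b and the peptide gene Npy were higher in the library labelled MR1 knockout, and Reln, Npas3, Col19a1, Chrna7 and Rgs6 were lower. The listed Sst subtype markers were not shifted to 1 side as a group: 9 of 16 lay on the higher side. Their median log2 ratio was 0.15 (0.90 in the females and -0.23 in the males). Single markers often differed: of the 12 with at least 50 UMIs, 4 were past the fold as higher and 3 as lower. Over all genes with at least 50 UMIs those shares were 5.82% and 3.49%. The higher levels of Htr2c, Tshz2, Calb1, Cntnap5b and Npy were found in the female mouse of that library and not in the male. Over all genes with at least 50 UMIs, 437 of 4693 (9.31%) were past a ratio of 1.5 either way with a 95% interval beyond 1, 273 (5.82%) higher and 164 (3.49%) lower in the library labelled MR1 knockout. With the male mice only the count was 188, with 70 higher and 118 lower, and with nuclei under 1% mitochondrial UMIs it was 265. In the nuclei outside the rule 6883 of 10827 genes were higher in any case, and 576 (7.91%) of 7283 were past the fold as higher and 142 (1.95%) as lower. Of the 273 higher genes 237 were higher and 76 past the fold there, and of the 164 lower genes 99 were lower and 27 past the fold. The direction was alike in the females and the males for 225 of the 273 higher and 126 of the 164 lower genes. Taken singly, the females kept it for 270 and 140 and the males for 228 and 150. These genes were picked on sums that include the same nuclei, so part of this was fixed in advance. The share over all genes was not taken.

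Htr2c encodes the serotonin 2C receptor (chromosome X, 146962513 to 147197277). Its level in Sst nuclei was 8.76 CPM for the 5XFAD female, 85.5 for the 5XFAD male, 602 for the female labelled MR1 knockout and 26.5 for the male so labelled, from 2, 18, 236 and 5 UMIs. Only the last library's female was high, and the males ran the other way. A group of 8 nuclei with few MGE UMIs, described below, held 29 Htr2c UMIs, and 3 of its nuclei were of the 5XFAD male. Over the libraries the ratio was 6.49 (4.61 to 9.39), and in the nuclei outside the rule it was 6.01. Tshz2, a zinc finger transcription factor gene (chromosome 2, 169633013 to 170071816), was at 0 and 61.7 CPM in the female and male 5XFAD mice and at 181 and 10.6 in the mice labelled MR1 knockout. Its ratio was 5.63, and 4.40 outside the rule. Calb1, which encodes the calcium buffer calbindin, was at 35, 71.2, 232 and 10.6 CPM in the same order. Cntnap5b, a cell adhesion gene of the contactin-associated family, was at 118, 52.2, 337 and 37.1 CPM. Again 1 mouse of 4 stood above the others in both genes.

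Npy encodes neuropeptide Y, which many dendrite-targeting interneurons release (chromosome 6, 49822710 to 49829507). The 5XFAD female had 145 CPM and the 5XFAD male 598, while the female and male labelled MR1 knockout had 990 and 472. The library ratio was 2.25 (1.91 to 2.66), whereas the males alone gave 0.789. The ranges of the 2 labels overlapped. Outside the rule the ratio was 1.55.

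**Figure D1:**
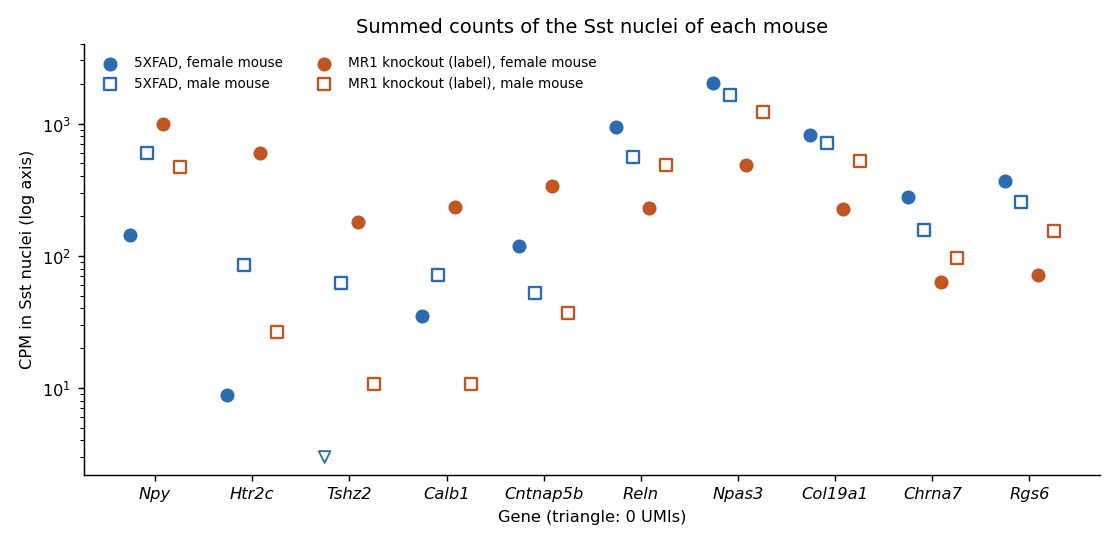
CPM (log axis) of 10 genes summed over the Sst nuclei of each mouse, female as filled circles and male as open squares, 5XFAD in blue and labelled MR1 knockout in orange. For Npy, Htr2c, Tshz2, Calb1 and Cntnap5b the female labelled MR1 knockout is highest and the male is not (Htr2c 602 and 26.5 CPM); for Reln, Npas3, Col19a1, Chrna7 and Rgs6 both 5XFAD mice lie above both others; the triangle marks 0 UMIs.

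The rule for named genes took only those alike in direction in both sexes, and so fixed that for Reln, Npas3, Col19a1, Chrna7 and Rgs6. Reln encodes reelin, a secreted glycoprotein made by a subset of Sst interneurons (chromosome 5, 21884454 to 22344702). Its levels were 941 and 560 CPM in the female and male 5XFAD mice and 230 and 488 in the mice labelled MR1 knockout. The labels did not overlap, but the males differed little, with a ratio of 0.871 (0.656 to 1.15), and the library ratio was 0.471 (0.399 to 0.554). Npas3, a transcription factor of interneuron development (chromosome 12, 53248677 to 54072175), was at 2019 and 1643 CPM against 487 and 1226. Col19a1, a collagen gene, was at 814 and 717 CPM against 224 and 525. Chrna7, the alpha 7 nicotinic acetylcholine receptor, was at 276 and 157 CPM against 63.8 and 95.5, and Rgs6, a regulator of G protein signalling, at 368 and 256 against 71.4 and 154. In each of these genes the female labelled MR1 knockout was lowest and the female 5XFAD mouse highest. Outside the rule the ratios of Reln, Npas3 and Col19a1 were 0.636, 0.594 and 0.674, and those of Chrna7 and Rgs6 were nearer to 1, at 0.784 and 0.781 against 0.455 and 0.466.

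**Figure D2:**
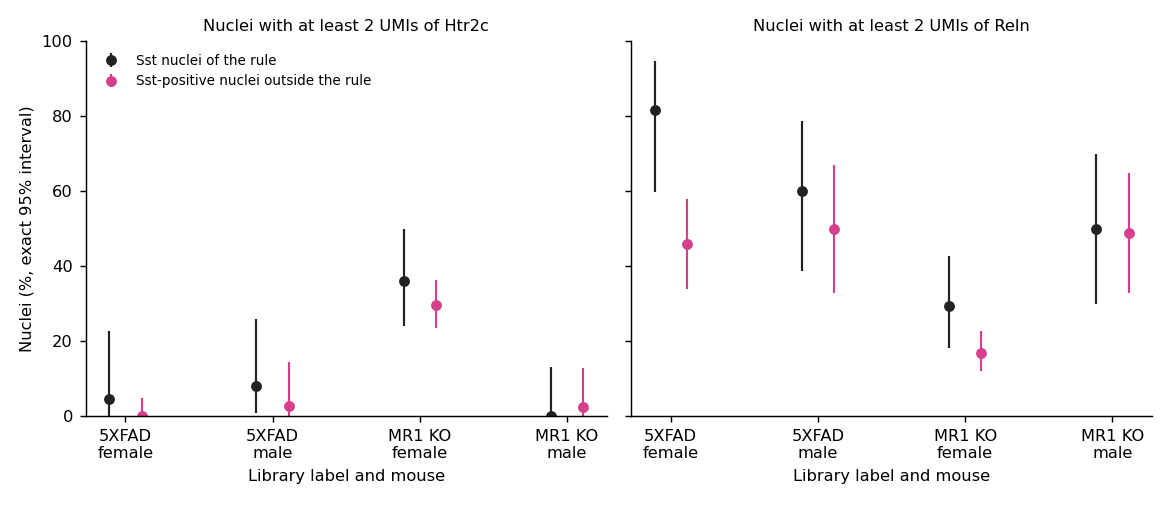
Share of nuclei (%, exact 95% interval) with at least 2 UMIs of Htr2c (left) and of Reln (right) by mouse, in the Sst nuclei of the rule (black) and in the Sst-positive nuclei outside it (pink). In both sets the female labelled MR1 knockout has the highest share for Htr2c (36.2% and 29.6%) and the lowest for Reln (29.3% and 17%).

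Counted by nuclei, 2 UMIs of Htr2c were seen in a minority of Sst nuclei, and fewer UMIs do not show that a nucleus lacks the transcript. At least 2 UMIs were present in 1 of 22 nuclei for the 5XFAD female and in 2 of 25 for the 5XFAD male. Among nuclei labelled MR1 knockout they were present in 21 of 58 from the female (36.2%, 24 to 49.9) and 0 of 26 from the male, where the interval reached 13.2%. Of the nuclei given to neither mouse, 4 of 13 (30.8%) had them under the 5XFAD label and 9 of 22 (40.9%) under the other, so that most of the 7 such 5XFAD nuclei belonged to no identified mouse. Outside the rule the counts were 0 of 72, 1 of 36, 61 of 206 (29.6%, 23.5 to 36.4) and 1 of 41 in the 4 mice, and 7 of 40 and 20 of 86 in nuclei given to neither. The nuclei labelled MR1 knockout were the shallower ones, with median UMIs of 9230.5, 8163, 6295 and 6657 in the Sst nuclei of these mice. With every nucleus thinned to 1500 UMIs, which left out no Sst nucleus, a UMI of Htr2c was found in 0%, 12%, 31% and 11.5% of them. Excitatory neurons, some of which express Htr2c, had a UMI in 33.8% and 31.3%, so the gene was at like levels there in both libraries (129 and 132 CPM).

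Reln was distributed in reverse. At least 2 UMIs were present in 81.8% of 5XFAD female and 60% of 5XFAD male nuclei, and in 29.3% and 50% of those labelled MR1 knockout. Outside the rule the shares were 45.8%, 50%, 17% and 48.8%, so there the 5XFAD female stood with the males. Thinned to 1500 UMIs, a Reln UMI was found in 63.6%, 36%, 20.7% and 46.2% of the Sst nuclei. A UMI of Reln was present in only 7.16% and 10% of excitatory neurons.

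The 37 Sst nuclei with at least 2 Htr2c UMIs were set against the other 129, over both libraries, a division chosen after the values were seen. Of the 37, 30 came from the library labelled MR1 knockout and 21 from its female, the mouse in which several of these genes stood out. Tshz2 stood at 304 CPM in the first and 37.6 in the second. Tox, a nuclear factor gene, stood at 511 and 128 CPM, Sox6 at 890 and 314, and Npy at 871 and 481. On the other side, Npas3 stood at 279 and 1302 CPM, Reln at 166 and 555, Col19a1 at 163 and 568, and Trpc6, a cation channel gene, at 116 and 349. Of the 39 and 40 Sst nuclei of the 2 libraries with at least 2 Reln UMIs, 1 and 7 also had 2 of Htr2c. The nuclei outside the rule, 90 with and 391 without Htr2c, showed the same directions for these genes with smaller ratios on the higher side (Tshz2 2.51 against 8.08, Tox 1.65 against 3.98, Sox6 1.23 against 2.84). On the lower side the ratios were alike, at 0.298 and 0.214 for Npas3 and 0.268 and 0.299 for Reln. Within that female alone, with 21 nuclei against 37, the ratio was 3.34 (1.98 to 5.81) for Tshz2, 4.30 for Tox, 0.156 for Npas3 and 0.325 (0.176 to 0.563) for Reln. Without the nuclei identified as hers, with 16 nuclei against 92, these ratios were 13.9, 3.05, 0.298 and 0.365. Of those 16, 7 were of the 5XFAD library, 4 of them given to neither mouse, and 0 of the male labelled MR1 knockout. The other 9 carried the MR1 knockout label, were given to neither mouse and may include nuclei of that female. In the 16 against the 92 the ratio was 2.58 for Meis2 and 0.458 for Nxph1. The part of doublets and of nuclei with few MGE UMIs in these ratios was not tested. In the nuclei outside the rule the female alone gave 0.365 for Npas3 and 0.378 for Reln, but 1.21 (0.891 to 1.63) for Tshz2, 1.25 (0.976 to 1.59) for Tox and 1.11 (0.924 to 1.34) for Sox6, whose intervals all held 1. Elfn1 did not separate the nuclei in either set (0.914, 0.613 to 1.33, and 1.02, 0.759 to 1.35).

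**Figure D3:**
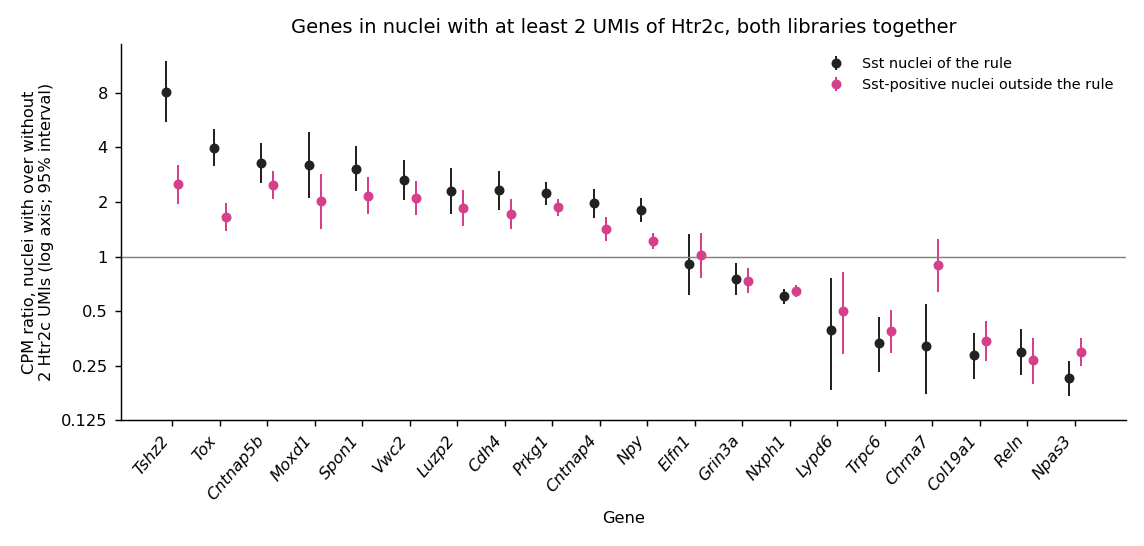
Ratio of CPM (log axis, 95% interval from counting error) between nuclei with and without at least 2 UMIs of Htr2c, both libraries together, for 20 genes in the Sst nuclei of the rule (black) and in the Sst-positive nuclei outside it (pink). Tshz2, Tox and Cntnap5b lie above 1 and Npas3, Reln and Col19a1 below it in both sets. For Chrna7 the whole interval lies below 1 only in the rule's nuclei (0.321, 0.175 to 0.546, against 0.904, 0.640 to 1.25).

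Without the 37 nuclei, 166 of the 273 higher and 113 of the 164 lower genes were still past the fold. A clustering of the 166 nuclei gave 9 groups, which used these same genes and so give no test of them. The libraries filled several of the groups unevenly, among them 2 led by genes named above. The group of 29 nuclei with the most Htr2c, also led by Tox, Sox6 and Moxd1, held 2 nuclei of the 5XFAD library and 27 of the other, 24 of them from its female. A group of 20, led by Chrna7, Npas1, Rgs6 and Lypd6 and with the most Reln, held 13 and 7, with 0 of the female labelled MR1 knockout. The library differences in these genes are therefore values over Sst nuclei that fell into different groups, and a different mix of nuclei cannot be told apart from a different level in each. In another group of 29 nuclei Scrublet marked 19 and 14 held RNA of both sexes. That group had 88 UMIs of Htr2c and 45 of Tshz2, and 75.9% of its nuclei had a UMI of Slc17a7. Its part in the Htr2c division was not tested. A group of 8 was led by Meis2, Zfhx3 and Pbx3, factors of other forebrain lineages, and had a median of 0 UMIs over the MGE markers. It held 6 nuclei of the 5XFAD library, 3 of them from its male, and 2 of the other. These nuclei had 29 UMIs of Htr2c and 18 of Tshz2, and their part in the values of the 5XFAD male was not tested.

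By the naming rule, the 12 genes that led on the higher side, ranked by the lower end of their interval and alike in direction in both sexes, were Ttr, Prr16, Vwc2, Cntnap4, Spon1, A830082K12Rik, Trps1, Luzp2, Reep5, Vgf, Myl12b and Prkg1. Ttr, the thyroxine carrier that the choroid plexus secretes in bulk, was at 110 and 475 CPM in the Sst nuclei of the 2 libraries and at 89.2 and 467 CPM in excitatory neurons. Vwc2, a secreted modulator of bone morphogenetic protein signalling, was at 87.7 and 262 CPM, a ratio of 2.99 (2.19 to 4.15) and 2 outside the rule. Trps1, a GATA-type repressor gene, was at 61.9 and 158 CPM and had ratios of 2.54 and, outside the rule, 1.93. Vgf, a secreted neuropeptide precursor, was at 77.4 and 171 CPM, with ratios of 2.30 in the females, 2.06 in the males and 1.53 outside the rule. For Prr16 the ratio was 5.21 in the Sst nuclei and 1.24 outside the rule, so this gene was not alike in the 2 sets. Cntnap4, which acts at interneuron synapses, gave 2.25 and 1.17.

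The 12 genes that led on the lower side, ranked by the upper end, were Npas3, Col19a1, Reln, Dgkh, Trpm3, Trpc6, Ptchd4, Rgs6, Chrna7, Enox1, Hs6st2 and Rps29. Dgkh, a diacylglycerol kinase, was at 162 and 63.3 CPM, and Trpm3, a steroid-gated and heat-gated channel, at 1007 and 496. Outside the rule their ratios were 1.01 and 0.951, against 0.391 and 0.493 in the Sst nuclei. Ptchd4, a patched-domain gene, was lower in both sets, with ratios of 0.494 and 0.535. Rps29, a ribosomal protein gene, was at 320 and 167 CPM, and it was lower in excitatory neurons too, at 272 and 181.

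**Figure D4:**
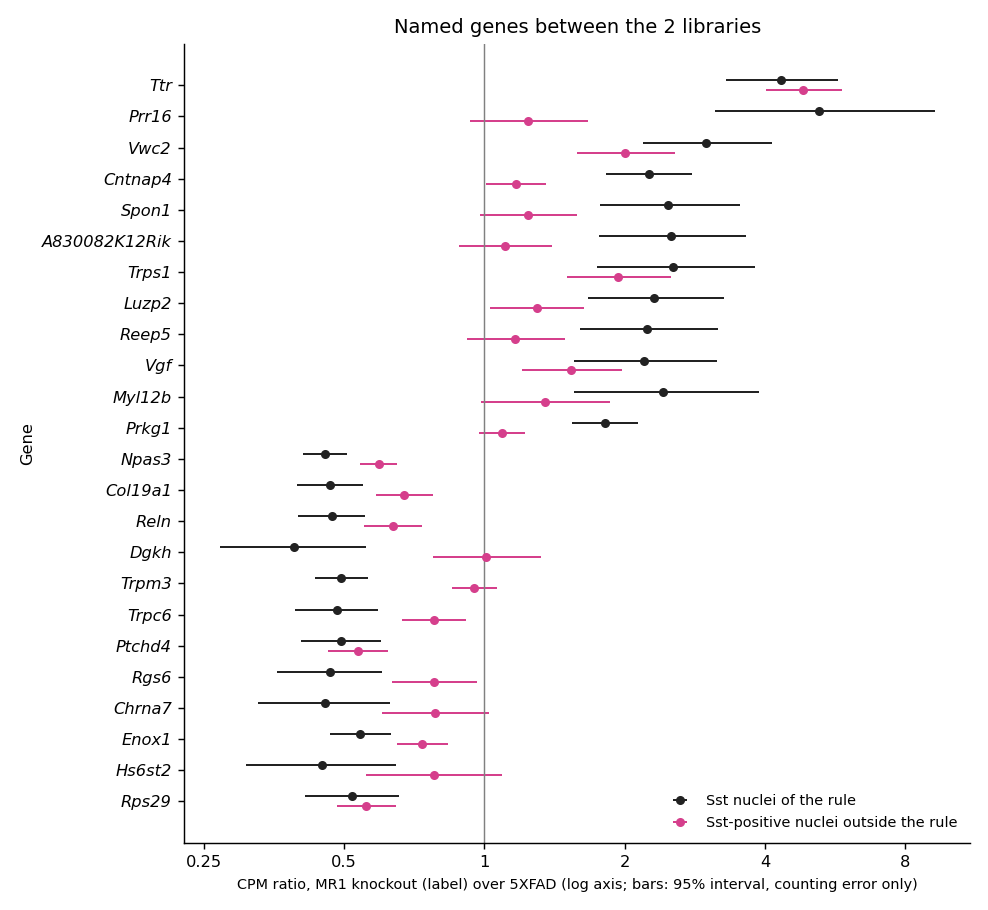
Ratio of CPM, with 5XFAD as the denominator and the library labelled MR1 knockout as the numerator (log axis, 95% interval from counting error) for the 24 named genes, in the Sst nuclei of the rule (black) and in the Sst-positive nuclei outside it (pink). Most outside values lie nearer to 1 than the rule's; for Prr16, Dgkh and Trpm3 they are 1.24, 1.01 and 0.951, whereas Ttr (4.83), Vwc2 (2), Npas3 (0.594) and Ptchd4 (0.535) stay apart from 1.

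Gene groups are given by how many of their members with at least 20 UMIs were higher in the library labelled MR1 knockout and by their median log2 ratio, beside 4678 of 8398 genes and a median of 0.065 over all genes. Among neuropeptides and the proteins that process them, 11 of 16 were higher, the median was 0.49 and 6 were past the fold. Pcsk2, a prohormone convertase, was at 212 and 382 CPM, and Scg5, its chaperone, at 194 and 318. Pcsk1n, a convertase inhibitor, was at 287 and 477 CPM and Scg2, a granin, at 148 and 243. The group's median was 0.85 in the females and -0.12 in the males, so it rested on the female mice. Pcsk2 in particular was at 96.3, 218, 457 and 149 CPM in the 5XFAD female, 5XFAD male, and the female and male of the other label.

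Chaperones were mostly higher, and their median was above 0 in the females (0.38) and in the males (0.23). Of the heat shock and unfolded protein response genes 14 of 15 were higher, with a median of 0.34, and outside the rule 15 of 19 and 0.36, where all genes had 6883 of 10827 and 0.13. Hspa5, the main chaperone of the endoplasmic reticulum, was at 99.8 and 182 CPM, a ratio of 1.83 (1.34 to 2.52), and in excitatory neurons it was at 49.3 and 94.3. All 5 measured genes of MHC class I and peptide loading were higher, with a median of 0.70, but 3 of them, Calr (82.6 and 147 CPM), Canx (134 and 218) and Pdia3 (67.1 and 111), are general chaperones. Canx was not higher after thinning to 1500 UMIs (ratio 0.812). The class I genes themselves were near the detection limit, with 8 and 16 UMIs of H2-D1 and 4 and 9 of H2-K1. Only 2 of 30 interferon response genes and 2 of 19 immediate-early genes reached 20 UMIs.

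In the Sst nuclei, genes linked to amyloid and to dystrophic neurites lay nearer to the background than the chaperones did. Of amyloid precursor and secretase genes 10 of 15 (66.7%) were higher with a median of 0.23, and of neurofilament and dystrophic neurite genes 19 of 25 (76%) with a median of 0.22, beside 55.7% of all genes. Outside the rule they were 13 of 16 (median 0.35) and 23 of 26 (0.26). The chaperones there were 15 of 19 (0.36) and all genes 6883 of 10827 (0.13). Thy1, whose promoter drives the transgenes, was at 287 and 455 CPM, a ratio of 1.58 (1.31 to 1.91), and at 417 and 666 in excitatory neurons. App was at 680 and 798 CPM, a ratio of 1.17 (1.03 to 1.34), and Aplp2, its paralogue, at 210 and 315. Nefl, the light neurofilament chain, was at 34.4 and 64.6 CPM, from 20 and 50 UMIs. Apoe, an astrocyte and microglia transcript, was lower, at 704 and 505 CPM.

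Ribosomal protein genes were lower, 23 of 26, with a median of -0.32 and 7 past the fold. Rplp1 was at 403 and 252 CPM and Rpl41 at 308 and 178. The median was -0.75 in the males and -0.03 in the females, and 0.06 in nuclei under 1% mitochondrial UMIs. Receptors and channels differed little as groups. Of glutamate receptors 9 of 22 were higher (median -0.05), of GABA receptor genes 12 of 18 (0.14), of potassium channels 14 of 32 (-0.04) and of synaptic adhesion genes 13 of 30 (-0.01). Chrm3, a muscarinic receptor gene, was at 764 and 459 CPM, past the fold. Elfn1, the adhesion protein that makes synapses onto Sst interneurons facilitate, was at 84.3 and 149 CPM, a ratio of 1.76 (1.25 to 2.51), and both mice labelled MR1 knockout lay above both others.

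Some subtype markers were no more frequent in Sst nuclei than in excitatory neurons. Tac1, a tachykinin gene, had a UMI in 28.3% and 13.2% of the Sst nuclei and in 28.2% and 4.79% of excitatory neurons, so its share in the 5XFAD library was at background. Penk, Etv1 and Meis2 were also at or below the excitatory share in both libraries (Meis2 25% and 11.3% against 50.9% and 37.7%). Crhbp, which binds corticotropin-releasing hormone, was well above it, at 36.7% and 31.1% against 2.19% and 1.83%. Chrna2, a marker of oriens-lacunosum moleculare cells, had 0 of 60 and 0 of 106 nuclei with a UMI, and Chodl, a marker of long-range Sst neurons, had 2 and 3.

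The other comparison, Sst interneurons against other interneurons, had both classes in each library, so the 2 libraries served as replicates and as a block. Its p-values come from edgeR's quasi-likelihood test with Benjamini-Hochberg adjustment, and they measure only the spread between these 2 captures. In the main edgeR fit, Sst nuclei stood out by high Grin3a, Elfn1, Npy, Lypd6b and Cacna2d3 and by low Egfr, Kit, Fgf13 and Cacna2d1. They did so there against each of 3 classes. Npy against Lamp5 nuclei did not pass in DESeq2 (adjusted p = 0.32). In edgeR it did not pass without nuclei marked by Scrublet (adjusted p = 0.14) or with stricter thresholds (0.55). Elfn1 against Lamp5 nuclei did not pass with stricter thresholds (adjusted p = 0.072, edgeR). The classes were nuclei with no Sst UMI and at least 10 UMIs over Lhx6, Sox6, Satb1 and Nxph1 (97 and 87 nuclei, a class added after the Pvalb rule had found 1 and 4), Lamp5 nuclei (20 and 36) and Adarb2 nuclei (172 and 221). The first class is called Nxph1 nuclei here, because all of them had Nxph1 while Sox6 was found in 39.2% and 42.5% and Lhx6 in 13.4% and 19.5%, which does not establish an MGE origin. It was not separate from the other classes: 23 and 38 of its nuclei also met the Lamp5, Adarb2 or Pvalb rule, so the 3 comparisons share nuclei on both sides and are not independent of one another. Leaving those nuclei out kept 74 and 49, of which 39 and 38 had Lhx6 or Sox6. Against the Nxph1 nuclei 240 of 9188 genes (2.61%) passed an adjusted p of 0.05, 117 (1.27%) higher and 123 (1.34%) lower. Without the shared nuclei 251 passed, 177 of them in common with the 240, and with Lhx6 or Sox6 required 438 passed. Against Lamp5 nuclei 456 of 6569 (6.94%) passed, 223 (3.39%) higher and 233 (3.55%) lower. Against Adarb2 nuclei 852 of 10659 (7.99%) passed, 388 (3.64%) higher and 464 (4.35%) lower. Against the 5 Pvalb nuclei 35 of 5194 (0.674%) passed, 26 (0.501%) higher and 9 (0.173%) lower.

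Glutamate receptors were often higher in Sst nuclei. Against the Nxph1 nuclei 5 of 22 tested were higher and 0 lower, against Lamp5 nuclei 9 higher and 2 lower of 21, and against Adarb2 nuclei 10 higher and 1 lower of 22. DESeq2 called 2, 6 and 7 of these higher and 0, 1 and 0 lower. Against the first class, edgeR at an unadjusted p of 0.05 had 10 higher and 1 lower, and without the shared nuclei 4 of 21 passed as higher. Grin3a was at 508 and 451 CPM in the Sst nuclei and at 109 and 94.0 in the Nxph1 nuclei, a log2 fold change of 2.27 (SE 0.17, adjusted p = 0.00061, edgeR). Grik3, a kainate receptor subunit, was at 188 and 172 CPM against 80.1 and 74.1, and Gria1, an AMPA receptor subunit, at 3601 and 3858 against 1957 and 2520, although Gria1 did not pass without the shared nuclei (adjusted p = 0.49, edgeR). The Sst nuclei of both libraries lay above the Nxph1 nuclei of both in these genes.

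Of neuropeptide and processing genes, 3 of 16 were higher and 0 lower against the Nxph1 nuclei, 3 of 15 and 1 against Lamp5 nuclei and 7 of 17 and 2 against Adarb2 nuclei, by edgeR. Npy, Vgf and Chga were higher in all 3 comparisons, Penk was lower against Lamp5 nuclei, and Cck and Vip against Adarb2 nuclei. DESeq2 called 1, 0 and 1 of these genes higher and 0, 0 and 1 lower, and at an unadjusted p of 0.05 in edgeR 1 was lower against the Nxph1 nuclei. Without the shared nuclei Vgf and Chga did not pass there (adjusted p = 0.48 and 0.14, edgeR), whereas the log2 fold change of Npy was 2.95. Npy was at 334 and 752 CPM against 69.1 and 130 in the Nxph1 nuclei, a log2 fold change of 2.44 (SE 0.17, adjusted p = 0.00061, edgeR). Chga, the granule protein chromogranin A, was at 117 and 164 CPM against 71.1 and 92.6. Elfn1 was at 84.3 and 149 CPM against 12 and 14.2, a log2 fold change of 3.12 (SE 0.26, adjusted p = 0.0009, edgeR). Cacna2d3, a calcium channel subunit, was at 1686 and 1438 CPM against 346 and 269. Its paralogue Cacna2d1 was reversed, at 102 and 186 CPM against 602 and 1003, a log2 fold change of -2.46. Without the shared nuclei that of Cacna2d1 was -1.93, and -1.55 with Lhx6 or Sox6 also required.

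GABA receptors and potassium channels included more lower than higher genes. Of GABA receptor genes 3 of 19 were lower and 0 higher against the Nxph1 nuclei, 4 of 18 and 0 against Lamp5 nuclei, and 5 of 19 and 0 against Adarb2 nuclei, by edgeR. At an unadjusted p of 0.05, 7, 7 and 5 were lower and 1, 1 and 2 higher, and DESeq2 called 1, 2 and 1 lower and 0 higher. Gabrg3 was at 492 and 570 CPM in the Sst nuclei against 1822 and 2101 in the Nxph1 nuclei, and Gabrb2 at 286 and 240 against 524 and 610. Of potassium channels 5 of 32 were lower and 0 higher against the Nxph1 nuclei, among them Kcnq5, an M-current channel (399 and 345 CPM against 1237 and 1031). At an unadjusted p of 0.05, 10 of them were lower and 3 higher, and DESeq2 called 1 lower and 0 higher. The log2 fold change of Kcnq5 was -1.57, but -0.956 without the shared nuclei and -0.690 with Lhx6 or Sox6 also required. Kcnc2, a fast potassium channel, passed as higher against Lamp5 and Adarb2 nuclei but not against the Nxph1 nuclei (adjusted p = 0.23, edgeR). Egfr, the epidermal growth factor receptor, was at 0 and 9.04 CPM against 82.1 and 165, and Kit, the stem cell factor receptor, at 10.3 and 5.17 against 73.1 and 113. Without the shared nuclei the log2 fold change of Egfr was -3.61, against -4.61 with them, and Kit had too few UMIs to be tested. With all classes in 1 fit, also without the shared nuclei, Kit was tested and did not pass (log2 fold change -2.34, adjusted p = 0.13, edgeR).

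**Figure D5:**
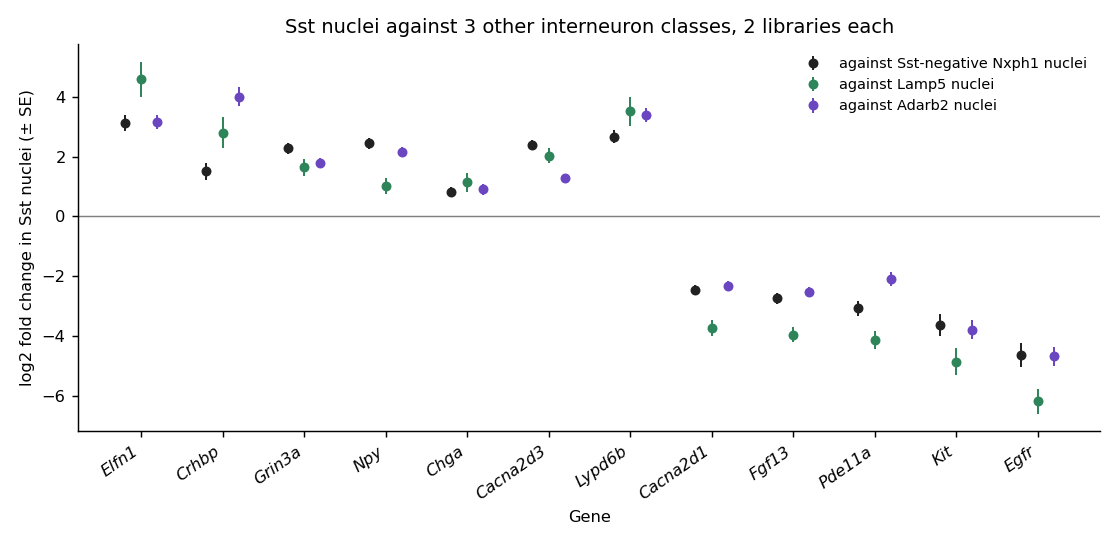
Log2 fold change (± SE, edgeR) in Sst nuclei against Sst-negative Nxph1 nuclei (black), Lamp5 nuclei (green) and Adarb2 nuclei (purple), each from 2 libraries, for 12 genes. Points of 1 gene share the Sst nuclei and some nuclei of the other classes. Elfn1, Crhbp, Grin3a, Npy, Chga, Cacna2d3 and Lypd6b lie above 0 and Cacna2d1, Fgf13, Pde11a, Kit and Egfr below it against all 3 classes. Crhbp did not pass in DESeq2 against the Nxph1 nuclei (adjusted p = 0.30) or Lamp5 nuclei (0.16). Without the shared nuclei its log2 fold change against the Nxph1 nuclei was 0.94 and did not pass (adjusted p = 0.16, edgeR).

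The amyloid and stress genes did not set Sst nuclei apart from the Nxph1 nuclei. App was at 680 and 798 CPM against 650 and 695, a log2 fold change of 0.16 (SE 0.15, adjusted p = 0.74, edgeR), and Thy1 at 287 and 455 against 242 and 444. None of the 17 amyloid genes, 15 heat shock genes, 25 dystrophic neurite genes, 26 ribosomal protein genes or 30 oxidative phosphorylation genes tested passed there in edgeR or in DESeq2. At an unadjusted p of 0.05 in edgeR 3 of the amyloid genes were lower, 1 heat shock gene was higher, 3 neurite genes were higher and 1 lower, 2 ribosomal protein genes were higher, and 0 oxidative phosphorylation genes differed. The counts rest on the tool: DESeq2 called 87 genes against the Nxph1 nuclei, 122 against Lamp5 nuclei and 159 against Adarb2 nuclei, all of them among the edgeR calls, whereas against the 5 Pvalb nuclei it called 50 genes, 26 of them among edgeR's 35. Lamp5 calls went to 279 without nuclei marked by Scrublet.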

How the data were processed

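Nuclear RNA of flash-frozen hippocampus was sequenced by 10x Genomics 3' v3.1 chemistry. The deposited files hold raw counts (UMIs per gene and barcode), which the authors made with Cell Ranger 7.0.0, per the file headers; the submitters' processing notes add mm10 and Seurat. Annotation release, strand and intron settings: not given in the sources used here. Of 32285 gene IDs 32235 matched GENCODE M21 (GRCm38), which gave the coordinates. The libraries held 106861726 and 85678909 UMIs.

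No cell annotation was used, so classes were rebuilt by thresholds and can differ from the study's. The rule, the gene lists and the tests were chosen with earlier results of these data known. Female nuclei were those with 2 or more Xist UMIs and none of Ddx3y, Eif2s3y, Kdm5d or Uty; male nuclei had a UMI of one of these and no Xist. Scrublet was set to mark the expected share (0.8% per 1000 nuclei), since its automatic threshold marked 0% of the 5XFAD library. Counts were summed per class and library. Ratios are of CPM with exact conditional binomial 95% intervals; a gene was past the fold at a ratio of 1.5 either way, an interval beyond 1 and at least 50 UMIs. Median log2 ratios used a prior count of 0.5. Named genes were the 12 higher and 12 lower with the bound farthest from 1 among genes with at least 100 UMIs, alike in direction in both sexes and at 20% or more of the highest class, with up to 4 members of each list. Classes were compared with edgeR 4.0.16 (TMM, filterByExpr, library as a block; 1 comparison class shares nuclei with the others), with DESeq2 1.42.0 as an alternative, in R 4.3.3. Scripts were tested on simulated data. Alternatives changed the nuclei, thresholds, scaling, depth and tool. Protein and genome sequences were not used here, and a few genes are not reported.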

Additional observations from a re-analysis of the deposited data

Results flagged for a closer look

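Of 346 genes looked at, 10 with at least 50 UMIs moved at least 2-fold in opposite directions in the mice of the 2 sexes. In these the female labelled MR1 knockout over the female 5XFAD mouse went one way and the male pair the other. With 1 mouse of each sex and label the difference was not tested, and sex cannot be told apart from the individual mouse. The 346 were a chosen part of the genes, since 4693 genes had at least 50 UMIs, and gene lists were chosen with earlier results known. Genes named for being alike in direction in both sexes could not be among the 10. The 10 of 346 is therefore not a rate over all genes. The ratios in females and males were 68.7 (18.8 to 571, from 2 UMIs in the 5XFAD female) and 0.310 for Htr2c, 6.63 and 0.149 (0.0165 to 0.641) for Calb1, 3.99 and 0.277 for Sox6, and 2.72 and 0.392 for Cdh4, a cadherin gene. For Tshz2 the female ratio was at least 13.8, set against a floor of 3 counts in the female 5XFAD mouse, and the male ratio was 0.172 (0.0188 to 0.759). Col25a1, a transmembrane collagen gene, gave 2.23 and 0.465. Tacr1, the receptor of substance P, gave 8.15 (1.24 to 345, from 1 UMI in the 5XFAD female) and 0.0771 (0.00891 to 0.305). Meis2 and Zfhx3, transcription factors that led the group of 8 nuclei with few MGE UMIs, gave 7.77 (2.47 to 39.2) and 0.0621 (0.00724 to 0.241), and 5.68 and 0.0745 (0.00177 to 0.484). The Sst nuclei of the 2 libraries had 82 and 57 Meis2 UMIs, and those 8 nuclei held 108 of them. The same 8 held 29 UMIs of Htr2c and 18 of Tshz2. Of the 8, 0 came from the 5XFAD female, 3 from the 5XFAD male, 2 from the female labelled MR1 knockout and 0 from the male so labelled, and their median was 0 UMIs over the MGE markers. Cdh9, another cadherin gene, was the 1 gene that ran the other way, with 0.349 in females and 2.14 in males.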

How the results depend on the processing

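No paired analysis was possible because each group has 1 library, so no replicates could be paired between the labels. The library was the block in the class comparisons, and leaving out 1 library left those differences without a test. The count of 437 genes past the fold became 265 under 1% mitochondrial UMIs, 188 with male mice only, 73 thinned to 1500 UMIs, 718 in the nuclei left out for Gad1 and Gad2 (chosen after seeing the data), 656 at a minimum of 20 UMIs and 819 with none. With TMM factors it stayed at 437, split 236 higher and 201 lower against 273 and 164. The ratio of Sst shares was 1.22 and became 2.52 among nuclei with at least 4 Gad UMIs, and 0.942 under 1% mitochondrial UMIs. Lists with a median above 0 went from 16 of 23 to 9 with male mice only.

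Calls against Sst-negative Nxph1 nuclei went from 240 to 87 with DESeq2, 487 with DESeq2 size factors, 577 with no filter on low counts, 416 with stricter thresholds, 493 without Scrublet doublets, 559 with Sst nuclei that had MGE markers and 438 with only nuclei of no other class that had Lhx6 or Sox6 (chosen after seeing the data). Calls against Lamp5 nuclei went from 456 to 122 with DESeq2, 124 with stricter thresholds and 279 without doublets. Against Adarb2 nuclei 852 went to 159 with DESeq2, 475 with all classes in 1 fit and 341 with MGE markers. Against Pvalb nuclei 35 went to 20 with no filter and 190 with all classes; stricter thresholds left no Pvalb nucleus and were not run. The causes were not tested.

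Ratios that changed sides with male mice only were Npy 0.789, Calb1 0.149, Gabrg1 0.838, Gabra4 0.559, Pcsk2 0.680, Cntnap5b 0.711, Htr2c 0.310 and Necab1 0.931. With female mice only they were Meis2 7.77, Tacr1 8.15, Cacna2d2 1.01 and Ntng1 1.46. Meis2 was also 3.06 at 10 or more Sst UMIs and 1.2 in nuclei with MGE markers. In the nuclei outside the rule Dgkh was 1.01, Scn3b 1.34, Ndufb8 0.915 and Ntng1 1.74. Thinned, Canx was 0.812, Manf 0.792, Atp5c1 0.991 and Ndufb8 0.692. Without Htr2c nuclei (chosen after seeing the data) Sv2b was 0.746. Of single values under alternatives 1688 were as in the main setting and 387 moved.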
